A study of Homo sapiens with 8 samples.

Results

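The 76 genes described here encode proteins of the mitochondrial ribosome and were taken by name: protein-coding genes of the deposited expression table whose symbol is MRPL or MRPS followed by a digit. They were 76 of the 16525 genes in the table, 48 named for the large subunit (MRPL) and 28 for the small subunit (MRPS), and they lay on 21 chromosomes. The rule uses names and no measured value, in a table that the authors had filtered on CPM. The cells were EndoC-βH5, a human beta-cell line of fetal pancreatic origin, so all libraries shared the background of 1 line. Control cultures were left without cytokines, and the others received IFNγ and TNFα, each at 1000 U/mL, with IL-1β at 50 U/mL, both for 48 h. Each condition had 4 libraries of strand-specific mRNA sequencing. The libraries are named by pairs A to D, the first part of the column name that a control and a cytokine library have in common. The names of A and B share one ending and those of C and D another, and what the endings stand for is not given in the sources used here.

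Mitochondria carry their own small genome, which encodes core subunits of the respiratory chain and the RNAs of a dedicated ribosome. All proteins of that ribosome are encoded in the nucleus, made in the cytosol and imported. The small subunit binds the mRNA and decodes it, and the large subunit forms the peptide bonds and delivers the new chain to the inner membrane. In beta cells, ATP from the respiratory chain links glucose to insulin release. The ribosome holds a single copy of most of its proteins.

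Levels are in CPM, a gene's reads scaled to the total reads of its library. Single reads were worth 0.0196 to 0.0214 CPM, and total reads ranged from 46767972 to 51145634 over the 8 libraries. Every one of the 76 genes was detected in every library, with 3 reads or more, and mean CPM over the 8 libraries ran from 0.353 to 70.7 with a median of 16.4. All 8 beta-cell markers examined were in the table, with summed CPM of 6851 to 11226 in control and 8949 to 16438 in cytokine libraries. The markers did not move together. Mean CPM was higher with cytokines for IAPP (4102 in control against 7787), PCSK1 (449 against 614) and NKX6-1 (169 against 222). It was lower for MAFA (22.5 against 4.57), SLC30A8 (505 against 219), PDX1 (383 against 222), INS (2169 against 1846) and UCN3 (393 against 334). No immune (0 of 4) or endothelial (0 of 3) marker was in the table, while 5 of 5 markers of other islet cells (470.6 to 2186 CPM in control and 559.7 to 2002 CPM in cytokine libraries), 1 of 5 acinar, 2 of 3 ductal and 2 of 3 fibroblast markers were. In bulk libraries, fewer cells and less RNA per cell cannot be told apart.

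The promoters of these genes are shown first, because genes of the mitochondrial ribosome are textbook targets of NRF1, of the ETS-family factor GABP (also called NRF2) and of YY1, while cytokines act through STAT, IRF and NF-kB factors. RefSeq windows from 250 bases before to 50 after the start of the gene (GRCh38.p14) were found for 67 of the 76 genes and were searched on both strands. The ETS letters CCGGAAG stood in 28 of the 67 windows (41.8%), against 10.7% of all 27305 promoters and 18.5% of the 10821 promoters of protein-coding genes in the table. The YY1 letters AAGATGGC stood in 19 (28.4%), against 3.03% and 5.19%. The NRF1 letters GCGCATGCG stood in 3 (4.48%), against 2.1% and 3.6%. At least 1 of these 3 motifs was present in 40 windows (59.7%), against 14.6% and 24.9%. In 14 of the 19 windows with the YY1 letters a match began 0 to 49 bases after the start, against 53.6% of all promoters that hold them. In 23 of the 28 windows with the ETS letters a match began between -50 and 10 from the start, against 49.3%. The SP letters GGGCGG were in 59.7% of the windows, against 44.6% and 69.8%, and the NF-Y letters AGCCAAT in 10.4%, against 7.37% and 9.72%.

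Letters for the factors that cytokines switch on were searched in the same way. TTCCNGGAA (STAT) was found in 2 windows (2.99%), against 1.22% of all promoters and 1.16% of those of protein-coding genes in the table. GAAANNGAA (IRF) was found in 7 (10.4%), against 8.29% and 6.21%, and GGANTTTCC (NF-kB) in 3 (4.48%), against 1.64% and 1.59%. Together, 11 windows (16.4%) held at least 1 of these 3, against 10.8% of all promoters and 8.59% of those of protein-coding genes in the table. A match describes letters in a window and is no evidence of binding. The 5 windows printed here belong to MRPL45 and MRPS27, which fell after cytokines, MRPL32, with the highest fold change of the 76 genes, MRPL30, which fell and holds both STAT and NF-kB letters, and MRPL52, which holds ETS, YY1 and IRF letters. Of the 5 genes called lower after cytokines, 1 held STAT letters and 1 NF-kB letters, MRPL30 in both cases, and 0 held IRF letters. The other windows with STAT, IRF or NF-kB letters belong to genes not called on the CPM scale. Capitals mark matches to the NRF1, ETS, YY1, STAT, IRF and NF-kB letters.
MRPL45, chr17:38296918-38297217, plus strand: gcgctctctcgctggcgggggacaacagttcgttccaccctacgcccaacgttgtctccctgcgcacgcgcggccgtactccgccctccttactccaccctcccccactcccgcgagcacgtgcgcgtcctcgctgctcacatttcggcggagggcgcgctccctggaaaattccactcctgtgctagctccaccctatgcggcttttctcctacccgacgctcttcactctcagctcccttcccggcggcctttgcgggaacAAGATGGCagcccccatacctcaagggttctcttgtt
MRPS27, chr5:72320191-72320490, minus strand: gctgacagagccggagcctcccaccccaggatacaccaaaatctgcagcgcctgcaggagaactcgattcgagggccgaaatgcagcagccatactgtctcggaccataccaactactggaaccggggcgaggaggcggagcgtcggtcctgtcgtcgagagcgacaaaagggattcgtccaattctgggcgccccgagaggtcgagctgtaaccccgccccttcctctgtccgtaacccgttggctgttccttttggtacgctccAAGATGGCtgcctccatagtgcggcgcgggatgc
MRPL32, chr7:42932126-42932425, plus strand: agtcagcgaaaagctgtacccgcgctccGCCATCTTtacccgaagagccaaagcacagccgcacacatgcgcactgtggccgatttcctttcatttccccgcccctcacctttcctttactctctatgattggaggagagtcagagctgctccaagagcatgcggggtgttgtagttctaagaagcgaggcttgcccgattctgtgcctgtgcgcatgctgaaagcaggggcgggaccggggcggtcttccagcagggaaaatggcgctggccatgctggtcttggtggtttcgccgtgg
MRPL30, chr2:99180934-99181233, plus strand: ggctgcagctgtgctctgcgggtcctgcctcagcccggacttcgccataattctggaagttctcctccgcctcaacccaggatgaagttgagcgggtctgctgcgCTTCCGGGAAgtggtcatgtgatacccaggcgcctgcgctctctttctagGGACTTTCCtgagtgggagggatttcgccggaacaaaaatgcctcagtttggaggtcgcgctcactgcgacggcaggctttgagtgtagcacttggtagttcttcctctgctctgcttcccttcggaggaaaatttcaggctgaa
MRPL52, chr14:22829637-22829936, plus strand: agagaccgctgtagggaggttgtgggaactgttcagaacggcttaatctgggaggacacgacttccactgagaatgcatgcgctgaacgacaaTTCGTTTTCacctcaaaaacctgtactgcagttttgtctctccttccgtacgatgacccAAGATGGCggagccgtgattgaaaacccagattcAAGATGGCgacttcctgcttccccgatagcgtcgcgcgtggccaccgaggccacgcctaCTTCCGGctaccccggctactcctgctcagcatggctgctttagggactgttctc
In MRPL45 and MRPS27 the YY1 letters began 13 and 16 bases after the start. In MRPL32 they stood far upstream, with the first base at -222 from the start. In MRPL30 the ETS match at -145 and the STAT match at -144 overlapped, and the NF-kB letters began at -95. In MRPL52 the IRF letters occurred at -157, the YY1 letters at -98 and -64 and the ETS letters at -5.

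Levels are given first in control cells, as TPM, which divide the reads by gene length and rescale them so that genes can be compared. Their median control TPM was 27.8, above the 14.5 of all protein-coding genes, and 62 of the 76 lay between 10 and 100 TPM. The medians were 29.03 TPM for the large and 24.1 TPM for the small subunit. The quartiles were 14.1 and 45.4 TPM in the large and 13.3 and 45.4 TPM in the small subunit. The highest gene exceeded the lowest 157-fold.

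Ranked by the mean over all 8 libraries, the top of the small subunit was MRPS26, at 140.3 ± 49.3 TPM in control (SD, n = 4), then MRPS34 at 98.3 ± 42.8 and MRPS18B at 80.1 ± 16.4. The large subunit was led by MRPL49 at 90.4 ± 17.7 TPM in control, MRPL41 at 72.5 ± 37.4 and MRPL18 at 65.8 ± 26.0. Neighbours in these orders differed by less than the larger of their SDs. At the low end stood MRPL46 at 1.38 ± 0.375, MRPL2 at 4.92 ± 0.692 and MRPL38 at 5.30 ± 0.710 TPM. In the small subunit the lowest were MRPS28 at 0.892 ± 0.502, MRPS17 at 3.26 ± 0.630 and MRPS23 at 7.52 ± 2.65 TPM. MRPS28 lay below the authors' minimum of 0.5 CPM in more than 4 of the 8 libraries, and its lowest library held 3 reads. The other 75 genes passed that minimum in these 8 libraries.

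**Figure D1:**
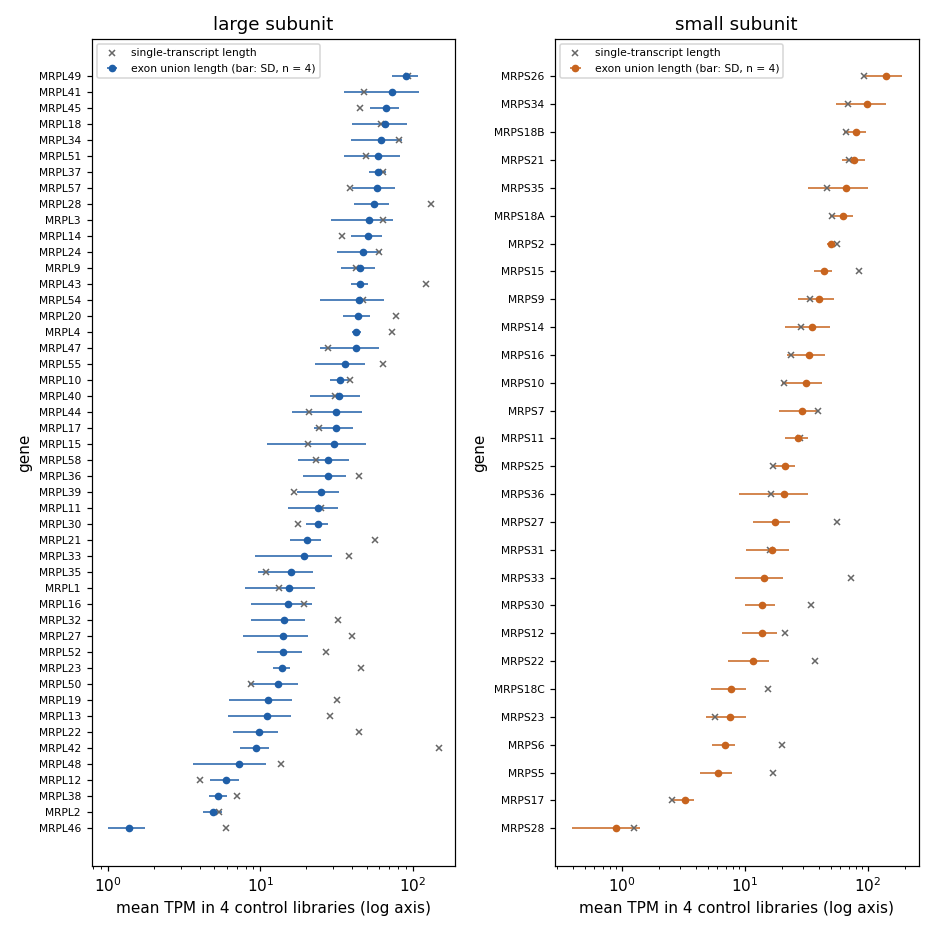
Mean TPM of each gene in the 4 control libraries on a log axis, large subunit left and small subunit right, with dots for the union of exons (bars are SD, n = 4) and crosses for the length of a single transcript. Most genes lie between 10 and 100 TPM, from 0.892 (MRPS28) to 140.3 (MRPS26) by exon union, and crosses and dots part most where a gene has long alternative exons.

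Length is the main uncertainty of this order. With the length of a single transcript in place of all exons, MRPS26 took place 2 and MRPS34 place 5 in the small subunit, MRPL49 took place 4 and MRPL41 place 15 in the large subunit, and MRPS28, MRPS17 and MRPS23 stayed the lowest of the small subunit. MRPL46 then stood at 5.95 TPM in control, place 46 of the 48 of the large subunit. In GENCODE 29, exons of another gene on the same strand covered 68.2% of the exon bases of MRPL12, 37.5% of MRPL38, 35.8% of MRPS28, 27.0% of MRPS17, 21.1% of MRPL33, 19.5% of MRPL30 and 11.3% of MRPL46. Reads in such stretches can be lost in counting, so the levels of these genes are uncertain.

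After cytokines the genes of the mitochondrial ribosome moved little. Of the 76 genes, 0 rose and 5 fell (limma on log2(CPM + 0.1), absolute log2 fold change above 0.5 and Benjamini-Hochberg adjusted p below 0.05 over all 16525 genes). Of all genes, 27.0% were called by this rule, 9.52% higher and 17.5% lower. At an unadjusted p below 0.05 the test gave 1 of the 76 genes higher and 10 lower, against 2268 and 4677 of all 16525 genes. The calls of edgeR with TMM scaling and of DESeq2 were each 5 higher and 1 lower, where edgeR called 2162 and 1892 of all genes. In 67 of the 76 (88.2%) the log2 fold change was within 0.5 of 0, as in 62.3% of all genes and 65.2% of protein-coding genes. The median absolute log2 fold change was 0.22, against 0.37 for all genes. The standard errors were of ordinary size, with a median of 0.19 against 0.20, and in 67 genes the 95% interval of the log2 fold change lay within 1 of 0. This fit leaves the pairs out, and a change smaller than these intervals was not detectable in it with 4 libraries a condition. Its adjusted p was below 0.05 in 7 of the 76 genes, against 5092 of all 16525. With the pairs of libraries as a block the median standard error was 0.096, and 34 of the 76 passed, against 9713 of all genes.

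The zero of this scale depends on the scaling. Over all genes the log2 fold change had a median of -0.17 on the CPM scale, and TMM scaling, which corrects for the makeup of a library, moved it by 0.15 to -0.01. The median of the 76 genes was -0.08 on the CPM scale and 0.07 with TMM, above the median of all genes on both. Without control library C the median of the 76 genes on the CPM scale was 0.01. On the CPM scale 26 of the 76 genes lay above 0 and 50 below, and with TMM 45 lay above and 31 below, so 19 genes turned upward with the scaling and 0 downward.

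**Figure D2:**
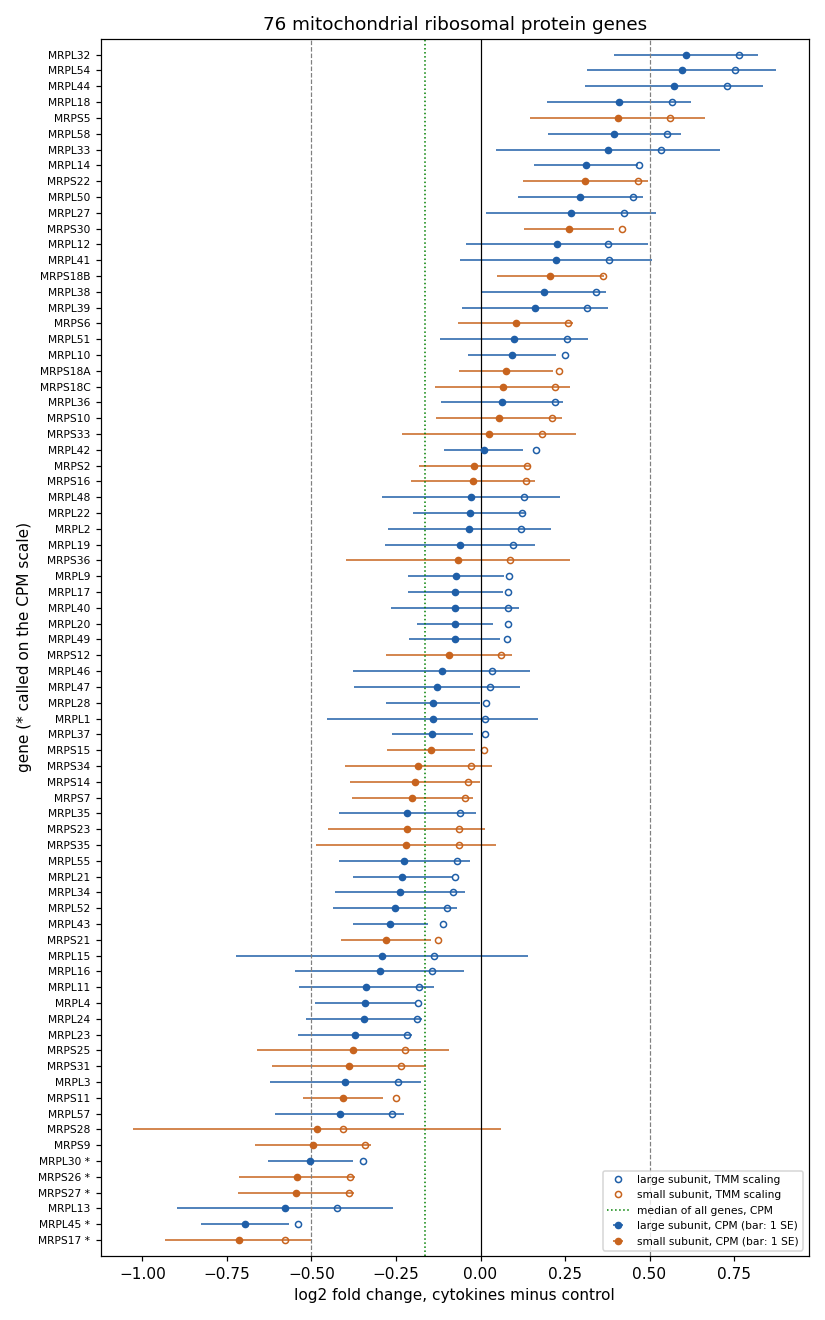
Log2 fold change of the 76 genes, cytokines minus control, ordered by the CPM scale, with filled dots for CPM (bars are 1 SE, limma), open dots for TMM scaling and dashed lines at -0.5 and 0.5. The dots run from -0.72 (MRPS17) to 0.61 (MRPL32), 67 of 76 lie between the dashed lines on the CPM scale, and every open dot lies to the right of its filled dot.

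MRPL45 gave the clearest fall. Its protein sits near the exit of the peptide tunnel and anchors the ribosome to the inner membrane. It had 27.7, 29.02, 34.3 and 26.6 CPM in control libraries A to D and 16.1, 17.3, 20.0 and 19.0 CPM in cytokine libraries A to D. All cytokine libraries lay below all control libraries, and the means were 29.4 ± 3.43 and 18.1 ± 1.77 CPM (SD, n = 4 each). Its log2 fold change of -0.70 ± 0.13 (SE) had an adjusted p of 0.00244 in limma, and the exact permutation test gave p = 0.0286, the smallest it can give for 4 against 4. It was called in all 20 alternative fits, each library left out in turn included, with log2 fold changes between -0.75 and -0.53. The pseudogene MRPL45P2, a copy of MRPL45, is listed as a gene of its own, at 1.87 ± 0.396 CPM in control and 1.24 ± 0.570 CPM with cytokines. Reads that match both may be lost from either count. MRPL45P2 was not called on its own (log2 fold change -0.63, adjusted p = 0.165, limma), but was with the pairs of libraries as a block (adjusted p = 0.0288, limma).

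MRPS17, the counterpart of a core protein of bacterial small subunits, was scarce, with 44 to 104 reads a library. It had 2.22, 1.503, 1.77 and 1.86 CPM in control and 1.06, 1.15, 1.21 and 0.884 CPM in cytokine libraries A to D, with no overlap. The fall of 0.72 on the log2 scale (SE 0.22) had an adjusted p of 0.0290 in limma. The log2 fold change stayed between -0.80 and -0.62 in the 8 fits that left out a library, of which 2 kept the call, and 7 of the 12 other fits called it. With TMM it was -0.58, still past the fold threshold, with an adjusted p of 0.0759 (limma). MRPS27 carries pentatricopeptide repeats, a fold that binds RNA. Control libraries A to D held 23.1, 25.3, 36.1 and 32.6 CPM and cytokine libraries 16.8, 17.8, 22.1 and 22.7 CPM, again without overlap. Its log2 fold change of -0.55 ± 0.17 (SE) had an adjusted p of 0.0332 in limma, was called in 4 of the 8 fits that left out a library and came to -0.39 with TMM.

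MRPS26, a protein found in mitochondria but not in bacterial ribosomes, had 32.5, 34.1, 52.8 and 42.2 CPM in control and 24.2, 25.8, 33.2 and 26.4 CPM in cytokine libraries A to D. Cytokine library C overlapped the range of the controls, although each cytokine library was below the control of its pair. MRPS26 fell by 0.54 on the log2 scale (SE 0.17), with an adjusted p of 0.0335 in limma and a call in 3 of the 8 fits that left out a library. MRPL30, related to a bacterial large-subunit protein, had 19.4, 16.2, 19.1 and 16.7 CPM in control and 13.2, 11.7, 12.3 and 12.96 CPM in cytokine libraries A to D. All cytokine libraries were below all controls, and its log2 fold change of -0.503 ± 0.125 (SE) lay just past the threshold, with an adjusted p of 0.0113 in limma and a call in 4 of the 8 fits that left out a library. Just inside it stood MRPS9, with a log2 fold change of -0.496 (adjusted p = 0.0492, limma) and 19.6 ± 3.94 against 13.8 ± 2.02 CPM. MRPS11 was lower in every cytokine library (39.4 ± 4.53 against 29.6 ± 1.54 CPM) with a log2 fold change of -0.41 (adjusted p = 0.0229, limma).

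**Figure D3:**
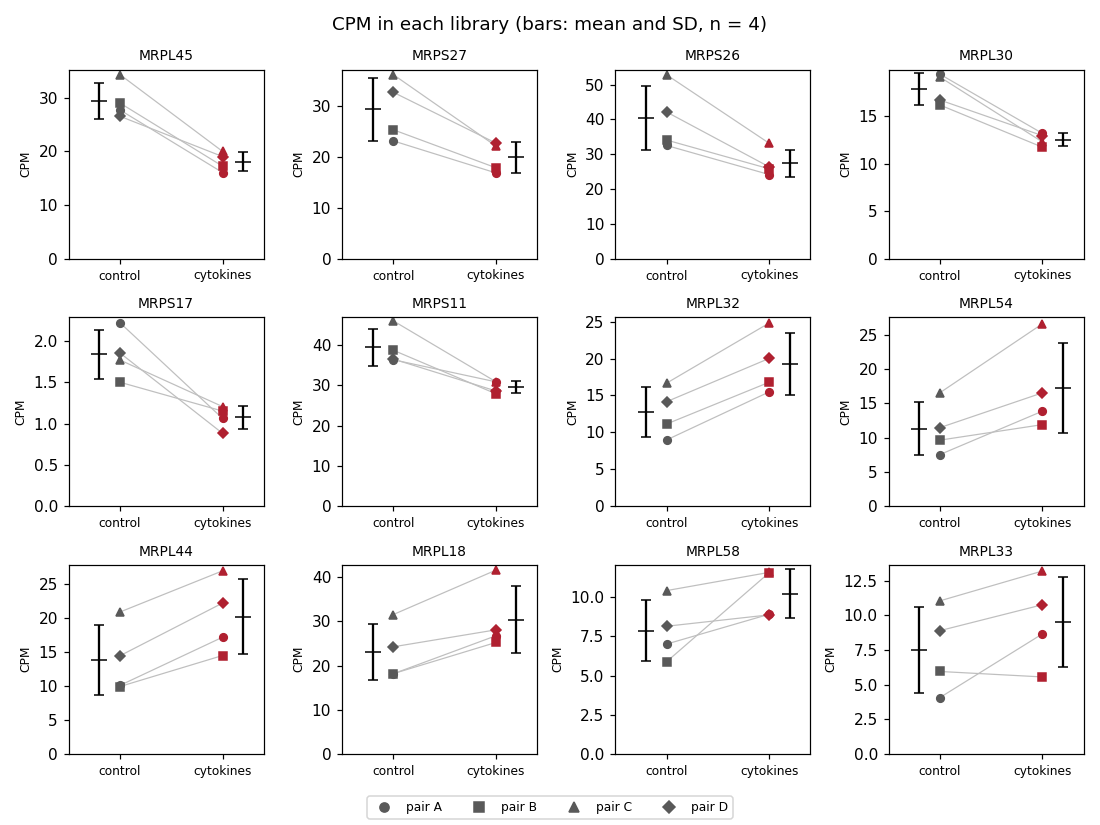
CPM in each library of 12 genes, control in grey and cytokines in red, with a line joining the libraries of a pair, a symbol for each pair and the mean with its SD (n = 4) beside the points. Cytokine libraries lie wholly below controls in MRPL45, MRPS27, MRPL30, MRPS17 and MRPS11, while in MRPL32, MRPL54, MRPL44 and MRPL18 every pair goes up and the groups overlap.

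The other 4 falls were not called in every alternative, although all 5 were called with the pairs as a block. With TMM scaling MRPL45 alone was called lower (log2 fold change -0.54), 1 of 76 against 11.5% of all genes. Without cytokine library B MRPL45 was likewise the single gene called, and without control library C it was the single gene called lower. Without control library D or cytokine library A, 2 genes were called lower, MRPL45 and MRPL30. Groups did not overlap in 6 of the 76 genes with cytokines lower, against 21.9% of all genes, and in 0 with cytokines higher, against 10.8%. The 6 were MRPS17, MRPL45, MRPS27, MRPL30, MRPS11 and MRPL43, the last with a log2 fold change of -0.27.

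At the upper end stood genes of the large subunit. MRPL32, which the m-AAA protease must trim before the ribosome is assembled, had 8.98, 11.1, 16.7 and 14.2 CPM in control and 15.5, 16.8, 24.8 and 20.0 CPM in cytokine libraries A to D. Each cytokine library was above the control of its pair, but cytokine library A lay below control library C. Its log2 fold change of 0.61 ± 0.21 (SE) missed the threshold with an adjusted p of 0.0516 in limma, and with TMM it came to 0.77 with an adjusted p of 0.0107. MRPL54 had 7.55, 9.65, 16.6 and 11.5 CPM in control and 13.9, 11.9, 26.6 and 16.6 CPM in cytokine libraries A to D, and a log2 fold change of 0.59 (adjusted p = 0.133, limma). MRPL44, which has a ribonuclease III-like fold, had 10.1, 9.93, 20.9 and 14.5 CPM in control and 17.2, 14.5, 27.0 and 22.2 CPM in cytokine libraries A to D, and a log2 fold change of 0.57 (adjusted p = 0.123, limma). In both genes all 4 pairs went up and the groups overlapped.

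With TMM scaling 5 genes were called higher, against 13.1% of all genes: MRPL32, MRPL54 (log2 fold change 0.75), MRPL44 (0.73), MRPL18 (0.57) and MRPL58 (0.55). All 5 are named for the large subunit, and their adjusted p-values lay between 0.0107 and 0.0489 (limma). MRPL18 is the counterpart of the protein that binds 5S RNA in other ribosomes, and MRPL58, also known as ICT1, is a peptidyl-tRNA hydrolase that frees stalled ribosomes. On the CPM scale MRPL18 had 23.0 ± 6.37 CPM in control and 30.4 ± 7.55 CPM with cytokines, and MRPL58 7.87 ± 1.94 and 10.2 ± 1.55 CPM. The same 5 were called with CPM when control library C was left out, and MRPL32 alone without cytokine library A. Next in the order on the CPM scale came MRPS5, which lines the mRNA channel, at a log2 fold change of 0.41, then MRPL33 at 0.38, MRPL14 and MRPS22 at 0.31 and MRPL50 at 0.30, none of them called with CPM or TMM.

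The libraries of a pair went together, so the change within pairs was also counted. In 29 genes (38.2%) all 4 pairs were lower with cytokines and in 14 genes (18.4%) all 4 were higher, against 43.6% and 22.2% of all genes. With the pairs as a replicate block, limma on CPM called 3 of the 76 genes higher, against 11.6% of all genes, and 6 lower, against 23.8%. The 3 were MRPL32, MRPL44 and MRPL54, and the 6 were the 5 named above and MRPL13, which had a log2 fold change of -0.58 and was lower in all 4 pairs (11.8 ± 3.81 against 8.09 ± 3.38 CPM). MRPL57 was also lower in all 4 pairs, with 33.5 ± 6.64 against 25.2 ± 5.50 CPM and a log2 fold change of -0.42 (95% interval -0.84 to 0.00), and its adjusted p with the block was 0.00194 (limma), short of the fold threshold. With the block and TMM together 7 genes were called higher, against 16.0% of all genes, MRPS5 and MRPL33 joining those of TMM alone. With both, 2 were called lower, MRPL45 and MRPS17, against 16.3%.

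The subunits differed little in the middle of their distributions. On the CPM scale, 2 of 48 genes of the large subunit and 3 of 28 of the small subunit were called lower, and the medians of the log2 fold change were -0.08 and -0.16 (0.08 and -0.01 with TMM). The large-subunit count was 1 without control library A or C or cytokine library B or C. The small-subunit count was 0 without control library C or D or cytokine library A or B. The summed CPM of the small subunit divided by that of the large was 0.646, 0.645, 0.625 and 0.675 in control and 0.634, 0.631, 0.595 and 0.641 in cytokine libraries A to D. The ratio was lower with cytokines in each pair, by less than the range among the controls. MRPS30 and MRPS18A carry small-subunit names but sit in the large subunit of the human ribosome. They had log2 fold changes of 0.26 and 0.08, and with them counted as large the calls were 2 of 50 and 3 of 26.

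By origin, 45 of the 76 genes were listed as having counterparts in bacterial or other ribosomes, and the other 31 were taken as specific to mitochondria. The split is approximate: of the MRPS18 genes the list names MRPS18C alone, so MRPS18A and MRPS18B are among the 31, as is MRPS36. Of the 45 listed genes 2 were called lower on the CPM scale (MRPS17 and MRPL30), with a median log2 fold change of -0.14 (0.02 with TMM). Of the 31 others 3 were called lower (MRPL45, MRPS27 and MRPS26), with a median of -0.07 (0.09 with TMM). Around the exit of the peptide tunnel, MRPL45 fell while MRPL23 and MRPL24 had log2 fold changes of -0.37 and -0.34, MRPL22 -0.03, MRPL17 -0.07 and MRPL47 -0.13, none of these called. With TMM the last 3 turned to 0.12, 0.08 and 0.03. The stalk proteins MRPL10 and MRPL12 had log2 fold changes of 0.09 and 0.23, and MRPS12, part of the decoding center, one of -0.09, which TMM turned to 0.06. MRPS36, later assigned to the oxoglutarate dehydrogenase complex rather than the ribosome, had a log2 fold change of -0.07, which TMM turned to 0.09.

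The only neighbours among the 76 genes were MRPL46 and MRPS11 on chromosome 15, which start on opposite strands with a gap of 33 bases between their GENCODE 29 spans (88459476 to 88467419 and 88467453 to 88480773). MRPS11 was far higher, at 39.4 ± 4.53 CPM in control against 2.38 ± 0.865 CPM of MRPL46, a difference per gene and not per length. MRPL46 had a log2 fold change of -0.11 (SE 0.26), which TMM turned to 0.035, beside -0.41 (SE 0.12) for MRPS11. In the RefSeq windows MRPL46 held the YY1 letters 8 bases after its start and MRPS11 none of the 6 motifs marked above.

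The genes at the ends of the level range were not called on the CPM scale, other than MRPS17 and MRPS26. MRPL49, the highest of the large subunit, had 72.6 ± 8.69 CPM in control and 68.9 ± 9.53 CPM with cytokines, and its log2 fold change of -0.08 (95% interval -0.37 to 0.22) turned to 0.08 with TMM. MRPS34 had a log2 fold change of -0.18 (-0.66 to 0.30), MRPL41 one of 0.22 (-0.40 to 0.85) and MRPS18B one of 0.21 (-0.14 to 0.56). Among the scarce genes, MRPL2 had a log2 fold change of -0.03 (-0.57 to 0.50), which TMM turned to 0.12, MRPL38 one of 0.19 (-0.22 to 0.59) and MRPS23 one of -0.22 (-0.73 to 0.29). MRPS28 gave the widest interval, -0.48 (-1.68 to 0.72).

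In most of the 76 genes the name endings separated the libraries more than the cytokines did, which was not so over all genes. It was also so in most genes of the cytosolic ribosome and of the nuclear respiratory chain. Both C and D lay above both A and B in 48 of the 76 genes in control (6 below) and in 47 with cytokines (9 below), and 41 did so in both conditions. Of all 16525 genes, 7325 did so in control (3079 below), 5948 with cytokines (3963 below) and 4826 in both. The median difference was 0.45 on the log2 scale in control and 0.30 with cytokines, against 0.18 and 0.06 for all genes. In control it was 0.56 in cytosolic ribosomal protein genes and 0.31 in nuclear respiratory chain genes. In 57 of the 76 genes the difference between endings in control exceeded that between conditions, and so it did in 7739 of all 16525 genes. So it did in 50 of 79 cytosolic ribosomal protein genes and 62 of 81 nuclear respiratory chain genes. The ending difference rests on 2 against 2 libraries and the condition difference on 4 against 4, so the ending difference carries more spread. A different effect of cytokines in the 2 endings was called in 0 of the 76 genes at adjusted p below 0.05 (limma interaction, 5 of all 16525 genes), and at an unadjusted p below 0.05 in 0 as well, with 2 libraries in each cell of the design.

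**Figure D4:**
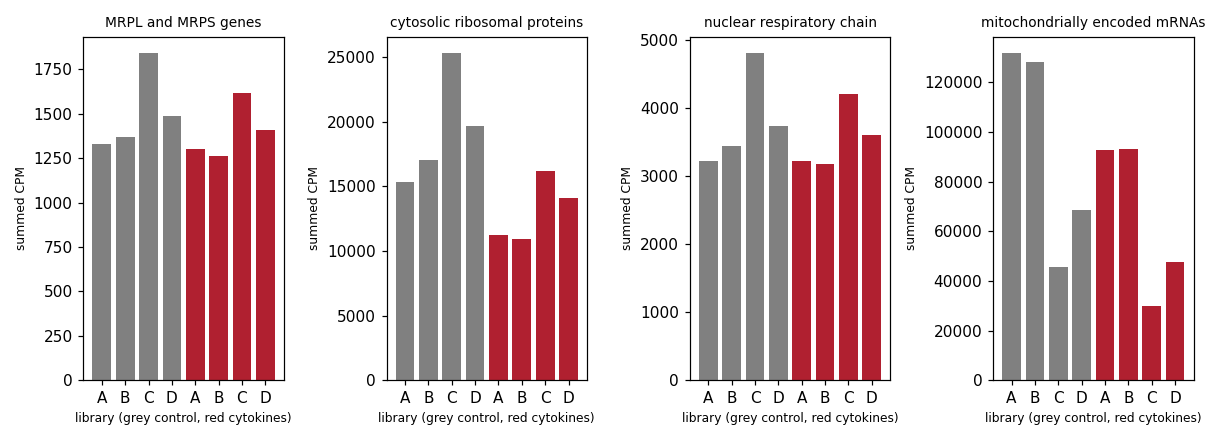
Summed CPM per library of 4 gene groups, control in grey and cytokines in red, each panel on its own axis from 0. The 76 MRPL and MRPS genes sum to 1332, 1367, 1842 and 1489 CPM in control A to D and 1303, 1261, 1615 and 1406 CPM with cytokines, and the mitochondrially encoded mRNAs are high in A and B where the ribosomal genes are low.

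As a sum, the 76 genes took 1332, 1367, 1842 and 1489 CPM in control and 1303, 1261, 1615 and 1406 CPM in cytokine libraries A to D. Each cytokine sum was below the control of its pair, and the group means were 1508 ± 233 and 1396 ± 158 CPM (SD, n = 4), a ratio of 0.926. This direction holds on the CPM scale alone. Divided by the TMM factors, the sums were 1376, 1376, 1644 and 1293 in control and 1426, 1378, 1723 and 1366 in cytokine libraries A to D. Each cytokine sum was then above the control of its pair, with a ratio of the means of 1.04. The TMM factors were computed on the reads of the listed genes, and CPM on total reads. Listed genes held 73.4% and 73.5% of total reads in control and cytokine library D, and 79.0% to 79.9% in the others. These scaled sums therefore compare libraries within a pair and not between pairs. The messages that this ribosome translates, the 13 mitochondrially encoded mRNAs, summed to 131809, 128107, 45559 and 68486 CPM in control and 92950, 93201, 29884 and 47612 CPM in cytokine libraries A to D. They ran against the ribosomal protein genes over the endings, with 12 of the 13 lower in C and D than in A and B in both conditions. Their part in the CPM of the nuclear genes was not tested.

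Mitochondrially encoded mRNAs all had log2 fold changes below 0, with a median of -0.51. With CPM, with TMM or with edgeR 0 of 13 were called, and 0 had an unadjusted p below 0.05 (limma). With the pairs as a block 7 were called lower, against 23.8% of all genes. All 13 then had an adjusted p below 0.05 (limma), against 9713 of all 16525 genes. With the block and TMM together 2 were called lower, against 16.3%, and the median was -0.35. In that fit 10 had an adjusted p below 0.05 (limma), against 9638 of all 16525 genes. Over all 21 mitochondrially encoded genes in the table, limma on CPM called MT-TQ alone, a transfer RNA gene (2.38 ± 0.824 against 0.769 ± 0.102 CPM, log2 fold change -1.46, adjusted p = 0.00185), while the block called 11 and the block with TMM 6. The ribosomal RNAs of the mitochondrial ribosome, MT-RNR1 and MT-RNR2, had log2 fold changes of 0.15 and -0.20. Of the 5 subunits under other symbols, 0 were called with limma on CPM and 1 had an unadjusted p below 0.05. PTCD3, a pentatricopeptide repeat protein of the small subunit, was higher in all 4 pairs (44.3 ± 7.64 against 59.3 ± 6.55 CPM, log2 fold change 0.43, adjusted p = 0.0435, limma) and was called with TMM at 0.59. DAP3, a GTP-binding subunit, stood at -0.20, and AURKAIP1 at -0.06, which TMM turned to 0.10.

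Assembly factors gave 2 falls among 25 genes tested of 26 listed (8.0%, against 17.5% of all genes called lower), both in genes for assembly of the small subunit. NOA1, a GTPase, had 26.2, 28.6, 30.0 and 24.9 CPM in control and 16.6, 17.4, 15.6 and 16.1 CPM in cytokine libraries A to D (log2 fold change -0.73, adjusted p = 0.000882, limma). RBFA, which binds the small-subunit RNA, had 8.39 ± 1.05 CPM in control and 5.03 ± 1.22 CPM with cytokines (log2 fold change -0.76, adjusted p = 0.0200, limma). With TMM NOA1 alone was called lower, RBFA had a log2 fold change of -0.60 (adjusted p = 0.0632, limma), and FASTKD2, an RNA-binding protein (16.9 ± 2.66 against 23.1 ± 2.20 CPM), was called higher at 0.61. The list's median log2 fold change was -0.18, beside -0.17 for all genes. Of its most abundant genes, DHX30 stood at -0.02 (0.14 with TMM), MTG2 at -0.46 and ERAL1 at -0.41.

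**Figure D5:**
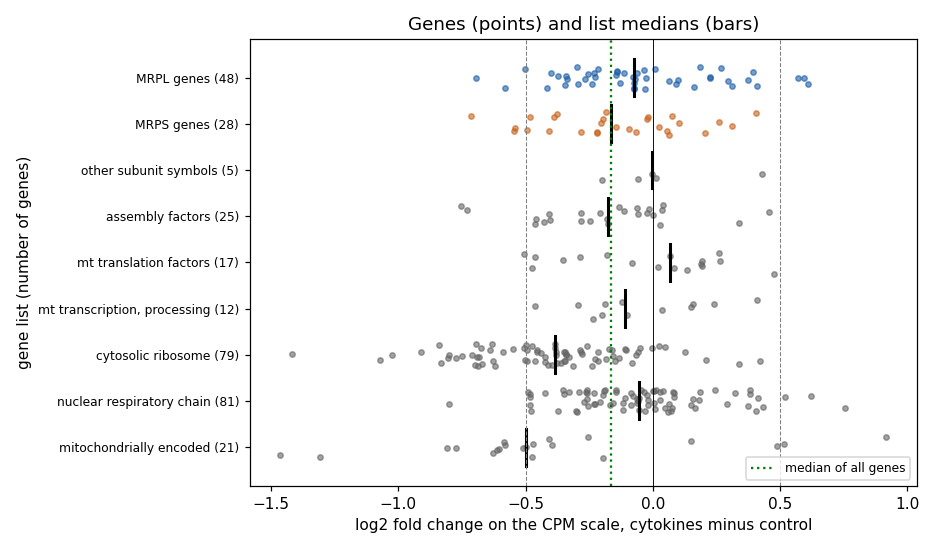
Log2 fold changes on the CPM scale of the MRPL and MRPS genes and of 7 related lists, with a point for each gene, a bar for each list's median, dashed lines at -0.5 and 0.5 and a dotted line at the median of all genes (-0.17). The MRPL and MRPS points gather between the dashed lines, the cytosolic ribosome lies lower with a median of -0.38 and the mitochondrially encoded genes lower still at -0.50.

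The 17 mitochondrial translation factors gave 0 calls (limma on CPM, against 27.0% of all genes) and a median log2 fold change of 0.07. At an unadjusted p below 0.05 (limma) 2 genes were higher and 4 lower, against 2268 and 4677 of all 16525 genes. Their most abundant genes were LRPPRC (-0.35), TUFM (0.08) and OXA1L (0.26), and with TMM the release factor MTRF1L was called higher (0.63). The 12 genes of mitochondrial transcription and RNA processing gave 0 calls and 1 gene lower at an unadjusted p below 0.05, POLRMT, the mitochondrial RNA polymerase (62.4 ± 7.09 against 45.1 ± 3.45 CPM, log2 fold change -0.46). HSD17B10 stood at 0.15 and ELAC2 at -0.29. Of 10 transcription factors of mitochondrial biogenesis tested, PPRC1, a coactivator of the PGC-1 family, rose (34.8 ± 3.99 against 58.4 ± 10.4 CPM, log2 fold change 0.74, adjusted p = 0.00392, limma). YY1 and SP1 had log2 fold changes of -0.01 and 0.04 (0.14 and 0.19 with TMM).

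The cytosolic ribosome was set beside the mitochondrial one because both are large sets of ribosomal protein genes. Of its 79 genes, 18 fell (22.8%, against 17.5% of all genes) and 0 rose on the CPM scale, with 0 higher and 32 lower at an unadjusted p below 0.05 (limma), a median log2 fold change of -0.38 and a summed CPM ratio of 0.678, against 0.926 for the 76 mitochondrial genes. With TMM 13 fell (16.5%, against 11.5% of all genes), 0 rose and the median was -0.23, and with the pairs as a block 26 fell (32.9%, against 23.8%). The 18 were RPL3, RPL4, RPL5, RPL6, RPL7, RPL7A, RPL12, RPL13A, RPL14, RPL15, RPL22, RPL23A, RPLP0, RPS3, RPS3A, RPS4X, RPS14 and RPSA. Its most abundant genes RPL3, RPL4 and RPLP0 had log2 fold changes of -1.42, -0.91 and -0.84. The 81 nuclear genes of the respiratory chain gave 2 rises (NDUFA9 at 0.62 and NDUFA4L2 at 0.76), against 9.52% of all genes. They gave 0 falls, against 17.5%, and a median of -0.05. The most abundant of these respiratory chain genes, ATP5F1B, ATP5F1E and ATP5F1A, had log2 fold changes of -0.06 (0.10 with TMM), 0.03 and -0.23. No test of the difference between these lists was run.

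Antisense and divergent RNAs named after the genes were not counted among the 76. MRPL20-AS1 fell from 17.7 ± 3.30 to 11.4 ± 2.31 CPM (log2 fold change -0.63, adjusted p = 0.0229, limma), a call lost with TMM (log2 fold change -0.48, adjusted p = 0.0418, limma), while MRPL20 itself stood at -0.08 (0.08 with TMM). MRPL23-AS1 fell from 1.71 ± 0.548 to 0.448 ± 0.244 CPM (log2 fold change -1.75, adjusted p = 0.00362, limma), beside -0.37 for MRPL23. MRPL20-DT had a log2 fold change of -0.54 and was lower in all 4 pairs; it was not called without the block (adjusted p = 0.105, limma) but was called with it (adjusted p = 0.00772, limma). MRPS30-DT stood at 0.26 and was not called in either fit.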

How the data were processed

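The authors sequenced strand-specific mRNA libraries from control and cytokine-treated EndoC-βH5 cells (4 each), aligned reads of 100 bp to GRCh38 with TopHat2 2.1.1, counted them on Ensembl 107 genes with HTSeq 0.9.1, and deposited CPM of genes above 0.5 CPM in at least 4 samples. Another 4 columns of values in the table were not used. All values used were whole multiples of 1 read within 0.001 reads, which gave the reads behind each value.

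The 76 genes, the related lists and the tests were chosen with earlier results of these data known. The test was limma 3.58.1 (R 4.3.3) with an intensity trend on log2(CPM + 0.1), fitted to all 16525 genes and 8 libraries, with Benjamini-Hochberg adjustment. The study used edgeR, but the deposited unit is CPM, so the recovered reads were tested with edgeR 4.0.16 and DESeq2 1.42.0 as alternatives, beside other scalings, pseudocounts of 0.5 and 1, a filter at a mean of 1 CPM, no trend, adjusted p alone, a block for the pairs and each library left out in turn. edgeR without TMM, TMM with the block, TMM-scaled sums, the interaction with the name ending and transcript lengths were added after seeing the data. The column names carry no replicate number. Their shared first part pairs the libraries: deviations from the group mean correlated by 0.46, 0.50, 0.75 and 0.68 within A to D. Control A with cytokines B and control B with cytokines A gave 0.45 and 0.49, so the check does not separate A from B, while control C with cytokines D and control D with cytokines C gave 0.10 and 0.094. Labels do not state whether libraries are separate cultures, so p-values measure the spread between these libraries. Lengths and coordinates are from GENCODE 29 and promoters from RefSeq on GRCh38.p14. Genes named are those called, the 10 highest and 10 lowest log2 fold changes, the 3 highest and 3 lowest mean TPM of each subunit, members called in the opposite direction under another scaling, and in other lists the called genes and the 3 of highest CPM. MRPL43, tunnel-exit, stalk and decoding proteins, MRPS18A, MRPS30, MRPS36, MRPL52, MRPL45P2, PTCD3, FASTKD2, TACO1, GABPB1, NDUFA7, MTRF1L, POLRMT, the mitochondrial ribosomal RNAs and the antisense RNAs were named after their values were seen. The tests were tested on simulated data. No library was a copy of another.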

Additional observations from a re-analysis of the deposited data

Results flagged for a closer look

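In MRPS18B, control library C stood apart at 44.9 CPM, with the other 3 controls between 37.0 and 37.7 CPM. Of 56 groups of 4 libraries examined in this way, chance would flag about 1 in 20. The whole set of 76 genes also summed highest in that library.

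In MRPL2 the libraries of both name endings moved in opposite directions, with log2 fold changes of -0.17 in pairs A and B and 0.10 in pairs C and D. The difference of 0.27 gave an adjusted p of 0.999 (limma interaction), so it was not distinguishable from the spread between libraries.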

How the results depend on the processing

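Of the 5 calls, that of MRPL45 was made in every alternative and the other 4 were each lost in some. The 5 calls among the 76 genes became 3 with a pseudocount of 1 and 3 without the intensity trend, and 9 with the pairs as a replicate block, in limma, in edgeR with TMM and in limma with TMM. Leaving out 1 library gave 1 to 6 calls. The 5 falls became 1 with TMM, median-of-ratios scaling, edgeR and DESeq2, 3 with a pseudocount of 1 or without the trend, 2 with the block and TMM in edgeR or limma, and 1 to 5 with 1 library left out. The 0 rises became 5 with TMM, median of ratios, edgeR and DESeq2, 3 with the block, 7 with the block and TMM in edgeR or limma, and 0 to 5 with 1 library left out. In the large subunit the 2 calls became 6 with TMM, median of ratios, edgeR, DESeq2 and the block, 7 with the block and TMM, 1 with a pseudocount of 0.5 or 1, and 1 to 6 with 1 library left out. In the small subunit the 3 calls became 0 with TMM, median of ratios, edgeR and DESeq2, 1 without the trend, 5 by adjusted p alone, and 0 to 3 with 1 library left out.

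In the related lists, TMM, median of ratios and edgeR gave 1 call for the subunits under other symbols, 1 for translation factors, 2 for biogenesis factors and 4 for the respiratory chain. Of all genes, limma called 24.7% with TMM and 35.4% with the pairs as a block. The pairs as a block gave 1, 2, 3, 7 and 26 calls for translation factors (TACO1 lower), biogenesis factors (adding GABPB1, higher), the respiratory chain (adding NDUFA7, lower), mitochondrially encoded mRNAs and cytosolic ribosomal proteins. It also called MRPL20-DT and MRPL45P2, and changed no further call in the 76 genes, these lists or the antisense RNAs beyond those in the text.

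With TMM 19 of the 76 genes turned from below to above 0. Directions reversed among the genes of the naming rule for MRPL2 (0.12 with TMM, median of ratios and the block with TMM in edgeR or limma, 0.093 in edgeR, 0.10 in DESeq2, and -0.19 to 0.10 with 1 library left out), MRPL49 (0.080 with TMM and the block with TMM, 0.086 with median of ratios, 0.084 in edgeR, 0.090 in DESeq2), MRPL46 (0.035 with TMM and the block with TMM in limma, 0.030 with the block and TMM in edgeR, 0.039 with median of ratios, -0.26 to 0.10 with 1 library left out) and MRPS34 (-0.31 to 0.015 with 1 library left out). The shift of the all-gene median by 0.15 under TMM is the construction behind the scaling changes, and the cause of the others was not tested. Depth limits MRPS28, with 3 to 30 reads, and MRPS17, with 44 to 104.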
